A study of Drosophila melanogaster with 53 samples.

Results

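The genes described here encode subunits of respiratory complexes II, III, IV and V of *Drosophila melanogaster*, together with somatic cytochrome c. They were taken by symbol, as every gene whose symbol begins with ATPsyn, COX, UQCR or Sdh, plus Cyt-c-p, Cyt-c1, RFeSP and blw. The rule found 33 genes among the 10657 listed for male muscle and the same 33 among the 10222 of a first set of female mutants. In the table of the other female mutants, with 10258 genes, 31 were found, 11 under a row name that fits the rule and 20 under an older symbol. Complex II was represented by 4 subunits (SdhA, SdhB, SdhC and SdhD) and its assembly factor Sdhaf3, complex III by 7 genes, cytochrome c by 1, complex IV by 7 and complex V by 13. ATPsynepsilonL, listed at 0 to 5.544 normalised counts in every library that held it, fell below the filter on low values and was not tested. That left 32 genes tested in the male table and in the Atg8a and daw 3' UTR table, and 31 in the miR-252 and foxo table, where UQCR-11 was not matched either.

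These complexes sit in the inner mitochondrial membrane. Complex II, which is also the succinate dehydrogenase of the tricarboxylic acid cycle, passes electrons to ubiquinone. Complex III hands them to cytochrome c, a small soluble carrier, and complex IV passes them to oxygen. Complexes III and IV pump protons, and complex V, the ATP synthase, uses the return flow of protons to make ATP. Flight muscle is among the tissues richest in mitochondria, and its contraction depends on ATP from this chain. Complexes III to V also hold a few subunits encoded by the mitochondrial genome, whereas all subunits of complex II are nuclear.

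Messenger RNA was measured by sequencing of polyadenylated RNA in 53 samples of 19 groups. For 39 libraries in 13 groups of 3, normalised counts per library were used, meaning read counts divided by a size factor within each table. All muscle samples were kept at 25 °C on standard food, except the axenic ones, which had antibiotic food. Nothing in the labels tells whether the 3 libraries of a group stem from separate animals or cultures, so each p-value reflects the spread among them, technical or not.

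Muscle of males of the control strain 5905, a w1118 line used as wild type (WT), was sampled 3, 15, 30 and 45 d after eclosion. All mutants were homozygous females 3 d after eclosion unless a heterozygous allele is named, each set with its own 5905 females of that age. The first set held Atg8a mutants (atg8ac320/c320), daw 3' UTR mutants (daw-3'UTRc82/c82) and daw 3' UTR foxo mutants (daw-3'UTRc82/c82; foxoc431/c431). The other set held miR-252 mutants (mir-252c328/c328), foxo mutants (foxoc431/c431), miR-252 foxo mutants (mir-252c328 foxoc431/mir-252c328 foxoc431) and the last genotype with dawc458/+ added, called daw/+ miR-252 foxo here. The labels name 1 allele each of foxo, mir-252 and Atg8a, so other differences between a mutant line and 5905 cannot be told apart from the allele. For axenic foxoc431/c431 females and axenic 5905 females at 3 d, and for HA-Ago1 precipitates and inputs from whole flies of both sexes at 3 and 30 d (pBID-UAS-HA-Ago1/+; GS-tubulin-GAL4/+), only comparison tables deposited by the authors served. In the precipitates, HA-Ago1 came from a transgene under a tubulin driver. Precipitate and input groups held 2 samples each, and axenic groups 3.

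Atg8a counts were 45.38, 42.99 and 60.4 in Atg8a mutants against 3569, 3445 and 2421 in WT. Counts of foxo were 717.0, 714.9 and 828.5 in foxo mutants against 596.1, 533.8 and 617.2 in WT, so the total count of the gene does not check that label, and the sources used here do not tell what the allele changes. Counts of daw were 421.2, 374.1 and 522.2 in daw 3' UTR mutants against 296.2, 322.2 and 228.6 in WT. They were 437.6, 361.3 and 468.0 in daw/+ miR-252 foxo mutants against 413.7, 456.0 and 421.6 in miR-252 foxo mutants, overlapping ranges, so the total count does not check the daw/+ label. The product of mir-252 was not measured. Libraries held 2358162 to 4078819 reads. In the male series 1 library, 3 d replicate 3, stood apart. Its log2 values correlated at 0.848 and 0.845 with the other 3 d libraries, which correlated at 0.979 with each other (Pearson, across genes). It had the highest value of its age in 29 of the 32 genes tested here, with a median ratio of 2.12 to the mean of the other 3 d libraries, and the ratio ran from 0.504 for blw to 3.1 for COX8. Across the 32 genes this ratio correlated with exon length at -0.762 (Pearson; Spearman -0.753), a description over genes that share the same libraries. Values for 45 d against 3 d, counts of calls and medians are therefore also given without it. In whole tissue, fewer muscle cells and less RNA per cell cannot be told apart. Exons of 16 of the 33 genes overlap another gene in the BDGP6 annotation, most of all ATPsyndelta with CG2962 on the other strand (1358 bp), and the sources used here do not tell whether reads were counted by strand, so their reads cannot be fully separated.

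The male series asks how muscle transcripts change with age. Nearly all of these genes fell between 3 and 15 d and stayed low. At 15, 30 and 45 d alike, 30 of 32 were lower than at 3 d, none was higher, and the same 2 genes, COX7A and Sdhaf3, were not called (limma, Benjamini-Hochberg adjusted p under 0.05). Over all genes tested, 5.62%, 8.09% and 10.5% were called lower at 15, 30 and 45 d, and 2.35%, 5.4% and 8.41% higher. The median log2 change of the 32 genes was -2.08 at 15 d, -2.04 at 30 d and -2.43 at 45 d, against 0.06, 0.07 and 0.07 for all genes tested. Ranges of the later age and of 3 d did not overlap, with the later age lower, for 30 genes at each age, as for 12.1%, 14.5% and 15.3% of all genes. Without 3 d replicate 3, 30 genes were again lower at each age, with medians of -1.71, -1.71 and -2.07, while 16.6%, 21.6% and 25.0% of all genes were then called lower.

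The summed level shows the size of the fall. All 33 genes together had 234500, 240800 and 344300 normalised counts in the 3 d libraries, 64000 to 71880 at 15 d, 59460 to 67900 at 30 d and 47410 to 52980 at 45 d. Complex V gave most of that sum, with 21610 to 24010 at 45 d against 135700, 144600 and 161500 at 3 d. The 3 d libraries lay above those of each later age in each complex, with 3 d replicate 3 the highest.

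**Figure D1:**
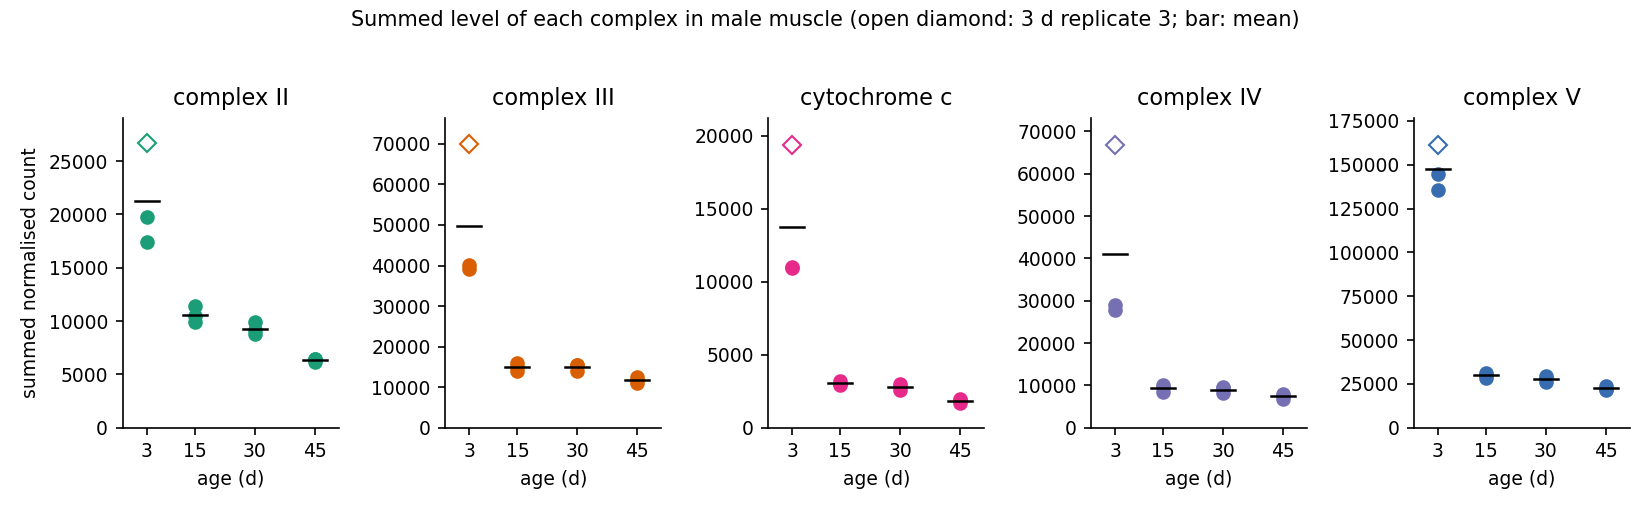
Summed normalised count (y axis) of the genes of complexes II, III, IV and V and of Cyt-c-p in each male library by age in days (x axis). Points are libraries, the open diamond is 3 d replicate 3 and bars are means of 3 libraries. All 3 d libraries lie above all later ones, and for all genes together the later libraries run from 47410 to 71880.

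Complex II fell least of the complexes at each age, with medians of -1.19, -1.22 and -1.66 at 15, 30 and 45 d, and all 4 subunits were lower at each. Without 3 d replicate 3 its medians were -0.929, -1.025 and -1.535. SdhA, the flavoprotein subunit that oxidises succinate, had 9134, 7921 and 6161 counts at 3 d, then 4706, 5096 and 5421 at 15 d, 4431, 4132 and 3864 at 30 d, and 2546, 2691 and 2761 at 45 d. Its libraries fell in 4 separate ranges, lower at each age. The log2 change at 45 d was -1.52 ± 0.16 (SE, limma adjusted p = 3.67e-05), and -1.68 without 3 d replicate 3, which was the lowest 3 d library for this gene. SdhB, the iron-sulphur subunit, had 2205, 2301 and 2193 counts at 45 d against 5734, 4896 and 10100 at 3 d. That is a log2 change of -1.56 ± 0.22 at 45 d (adjusted p = 0.000437), or -1.25 without replicate 3.

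The membrane anchors of complex II, SdhC and SdhD, fell too. SdhC had 927.7, 1034 and 1029 counts at 45 d against 2737, 2507 and 5653 at 3 d (log2 -1.77 ± 0.26, adjusted p = 0.000505, and -1.40 without replicate 3). SdhD had 456.3, 466.3 and 503.0 counts at 45 d against 2130, 2085 and 4762 at 3 d (log2 -2.54 ± 0.26, adjusted p = 3.83e-05, and -2.15 without replicate 3). For both anchors the highest 45 d library was below the lowest 3 d library. Sdhaf3, an assembly factor that is not part of the finished complex, was low throughout, at 13.58, 18.62 and 22.66 counts at 45 d against 18.74, 32.47 and 64.33 at 3 d. Its ranges overlapped, and the difference at 45 d was not called (log2 -0.89 ± 0.37, adjusted p = 0.117, and -0.44, adjusted p = 0.208, without replicate 3).

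All 7 genes of complex III were lower at each later age, with medians of -1.73, -1.91 and -2.20. Without 3 d replicate 3 the medians were -1.494, -1.515 and -1.84. The core proteins UQCR-C1 and UQCR-C2 had the highest counts. UQCR-C1 had 9182, 9825 and 15350 counts at 3 d, then 3267, 3428 and 3421 at 15 d, 3073, 3061 and 2785 at 30 d, and 2458, 2387 and 2454 at 45 d (log2 at 45 d -2.20 ± 0.18, adjusted p = 6.64e-06, and -1.96 without replicate 3). UQCR-C2 had 2692, 2889 and 3118 counts at 45 d against 9103, 9035 and 13580 at 3 d (log2 -1.84 ± 0.17, adjusted p = 1.74e-05, and -1.65 without replicate 3). Of the small subunits, UQCR-11 and UQCR-Q changed most in this complex, with and without replicate 3. UQCR-11 had 325.8, 359.9 and 403.3 counts at 45 d against 1955, 1957 and 4097 at 3 d (log2 -2.79 ± 0.26, adjusted p = 1.9e-05, and -2.43 without replicate 3). UQCR-Q had 930.0, 974.3 and 1097 counts at 45 d against 4533, 4841 and 9955 at 3 d (log2 -2.59 ± 0.25, adjusted p = 2.54e-05, and -2.23 without replicate 3). RFeSP, the Rieske iron-sulphur protein, fell least, with 2575, 2889 and 2995 counts at 45 d against 6497, 6321 and 15500 at 3 d (log2 -1.61 ± 0.28, adjusted p = 0.00175, and -1.19 without replicate 3).

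Cyt-c-p, the somatic cytochrome c gene, stepped down at 15 d and was lower again at 45 d. It had 11000, 10960 and 19370 counts at 3 d, then 2906, 3009 and 3221 at 15 d, 3027, 2847 and 2608 at 30 d, and 1680, 1918 and 1969 at 45 d. The 15 and 30 d libraries overlapped, and the 45 d libraries lay below both. At 45 d against 3 d the level was 0.14 times as high (log2 -2.84 ± 0.20, adjusted p = 2.38e-06, and -2.57 without replicate 3).

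Complex IV had the widest spread between its genes. Of its 7 nuclear-encoded subunits, 6 fell at each age and COX7A did not pass, and the medians were -2.10, -1.98 and -2.31. Without 3 d replicate 3 the medians were -1.641, -1.592 and -1.927. COX5A had 7410, 7167 and 16610 counts at 3 d, then 1939, 2335 and 2348 at 15 d, 2054, 1944 and 1809 at 30 d, and 1332, 1411 and 1493 at 45 d (log2 at 45 d -2.76 ± 0.27, adjusted p = 2.31e-05, and -2.37 without replicate 3). COX4 had 2094, 2410 and 2364 counts at 45 d against 8269, 7651 and 17810 at 3 d (log2 -2.19 ± 0.26, adjusted p = 0.000131, and -1.80 without replicate 3). COX8 had 577.7, 639.2 and 757.6 counts at 45 d against 2773, 2621 and 8363 at 3 d (log2 -2.59 ± 0.35, adjusted p = 0.000321, and -2.04 without replicate 3). In each of these 3 genes the lowest 3 d library was above every later library, and replicate 3 was the highest.

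COX7A stood against the other subunits of complex IV. It had 400.9, 409.4 and 1254 counts at 3 d, then 427.7, 422.0 and 416.2 at 15 d, 422.4, 446.8 and 398.1 at 30 d, and 355.2, 336.9 and 452.2 at 45 d. Apart from 3 d replicate 3 all libraries lay in 1 band. The log2 change at 45 d was -0.64 ± 0.35 (adjusted p = 0.239), and without replicate 3 it was -0.10 ± 0.11 (adjusted p = 0.462).

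Complex V fell furthest among the complexes of several genes, with all 12 genes tested lower at each age and medians of -2.19, -2.24 and -2.52. Without 3 d replicate 3 the medians were -1.942, -2.177 and -2.446. ATPsynC, which encodes the subunit of the membrane rotor ring, had 26720, 29820 and 30340 counts at 3 d, then 3759, 3825 and 3968 at 15 d, 3453, 3188 and 3215 at 30 d, and 2916, 2902 and 3202 at 45 d. Its 3 d libraries agreed closely, and at 45 d the level was 0.104 times that at 3 d (log2 -3.27 ± 0.12, adjusted p = 1.72e-08, and -3.23 without replicate 3). ATPsyngamma, the central stalk, had 940.5, 949.5 and 942.5 counts at 45 d against 7179, 7634 and 11090 at 3 d (log2 -3.16 ± 0.16, adjusted p = 1.92e-07, and -2.97 without replicate 3). ATPsynbeta, the catalytic subunit, had 5496, 5771 and 6169 counts at 45 d against 36100, 38050 and 28840 at 3 d (log2 -2.55 ± 0.14, adjusted p = 2.53e-07, and -2.67 without replicate 3). ATPsynE, a small membrane subunit, fell least in this complex, with 881.7, 929.1 and 1015 counts at 45 d against 3083, 3216 and 7190 at 3 d (log2 -2.14 ± 0.27, adjusted p = 0.000202, and -1.74 without replicate 3).

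**Figure D2:**
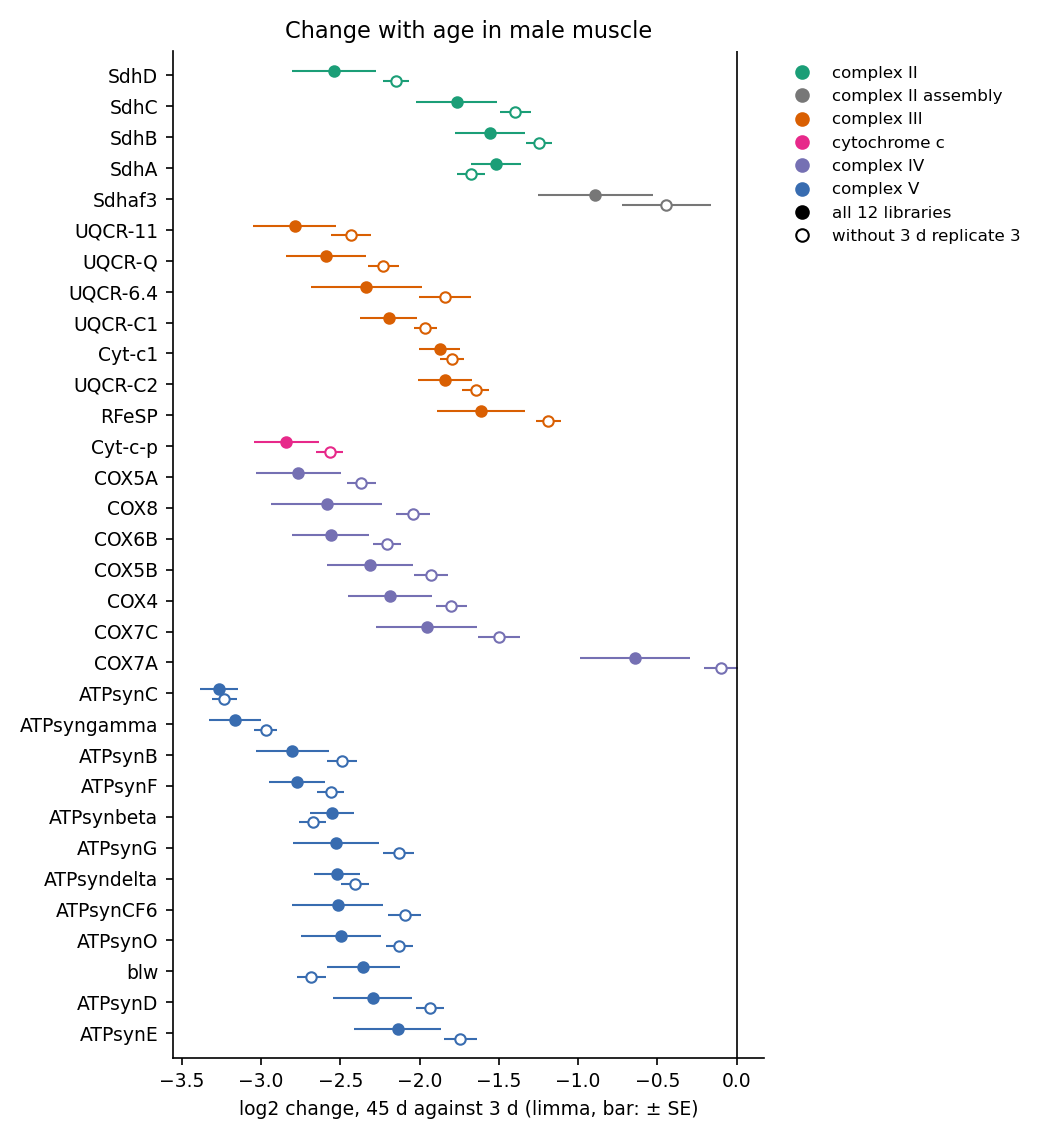
Log2 change between 45 and 3 d in male muscle (x axis, limma, bars ± SE) for the 32 genes tested, grouped by complex. Filled points use all 12 libraries and open points leave out 3 d replicate 3. Changes run from -3.27 for ATPsynC to -0.64 for COX7A, and only COX7A and Sdhaf3 were not called.

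After 15 d the differences were small. Between 30 and 15 d no gene was called by limma, edgeR or DESeq2, and none had an unadjusted p under 0.05 in limma (median log2 -0.07, against 0.0596% of all genes called lower and 0.0238% higher). Ranges did not overlap, with 30 d lower, for 10 genes, as for 13.1% of all genes. Without 3 d replicate 3, which shares the estimate of spread, SdhA alone was lower at 30 d (log2 -0.29, adjusted p = 0.0376, against 3.41% of all genes). Between 45 and 30 d every estimate was below 0, with a median of -0.32, yet limma and edgeR called 0 of 32 (6 had an unadjusted p under 0.05 in limma, DESeq2 called 1, and 0.0% of all genes were called lower). Ranges did not overlap for 24 of the 32, as for 13.0% of all genes. Without 3 d replicate 3, 17 genes were lower at 45 than at 30 d, against 2.2% of all genes. These were all 4 subunits of complex II, 5 of 7 genes of complex III, Cyt-c-p, 1 of 7 in complex IV and 6 of 12 in complex V. SdhA (log2 -0.63, adjusted p = 0.000604) and Cyt-c-p (log2 -0.61, adjusted p = 0.000604) had the largest of these changes, and COX5A was the gene of complex IV (log2 -0.45, adjusted p = 0.0063).

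Subunits that the symbol rule did not take moved alike. The mitochondrially encoded subunits were lower in 5, 5 and 6 of 6 cases at 15, 30 and 45 d, with medians of -1.62, -2.03 and -2.41. Without 3 d replicate 3 all 6 were lower at each age, with medians of -1.35, -1.88 and -2.29. Among them mt:CoI, the catalytic subunit of complex IV, changed least, with 49520, 58050 and 39300 counts at 45 d against 182500, 151300 and 144100 at 3 d (log2 -1.71, and -1.78 without replicate 3). The largest change was that of mt:ATPase8 (log2 -3.59, and -4.01 without replicate 3), whose reading frame overlaps mt:ATPase6, so their reads cannot be fully separated. All mitochondrially encoded transcripts together took 26.44%, 24.87% and 34.39% of the counts at 3 d, 12.86 to 13.41% at 15 d, 8.673 to 8.81% at 30 d and 5.514 to 7.905% at 45 d. Of the nuclear subunits with other names, all 4 tested were lower at 45 d. They were sun (complex V epsilon, log2 -3.69), levy (complex IV, -2.28), ox (complex III, -1.84) and cype (complex IV, -1.35), while testis-specific Cyt-c-d was under the filter. All 4 were again lower at 45 d without 3 d replicate 3, with log2 changes of -3.33 for sun, -1.83 for levy, -1.34 for ox and -0.86 for cype. Of 5 assembly factors of complexes III to V, CG5037 was lower (-1.69) and the other 4 were not called (list median -0.18). The calls differed without 3 d replicate 3. CG5037 was lower (-1.50), Surf1 (0.93, adjusted p = 2.64e-05) and Ttc19 (0.28, adjusted p = 0.0345) were higher at 45 d, and the list median was 0.14.

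Genes upstream and beside the chain fell too. Of 14 tested genes of the tricarboxylic acid cycle and pyruvate dehydrogenase, 12, 12 and 13 were lower at 15, 30 and 45 d, with medians of -1.16, -1.31 and -1.68. The counts were 12, 13 and 13 without 3 d replicate 3, with 1 higher at 30 d and medians of -1.09, -1.32 and -1.68. The citrate synthase gene kdn changed most, with 1049, 1098 and 1233 counts at 45 d against 14160, 16110 and 5677 at 3 d (log2 -3.28, and -3.75 without replicate 3), and ScsbetaG least (log2 0.06, and 0.28 without replicate 3, not called in either). All 4 tested carriers were lower at 45 d, led by the phosphate carrier gene Mpcp1 (log2 -4.32), and the adenine nucleotide translocase gene sesB changed by -2.85. Of 8 regulators of mitochondrial biogenesis, mtTFB2 (-0.81), TFAM (-0.66) and PolrMT (-0.69) were lower at 45 d, and srl, the PGC-1 homologue (1.55), and Ets97D (0.78) were higher. All 4 carriers were lower at each age without 3 d replicate 3, when Mpcp1 changed by -4.22 and sesB by -3.04 at 45 d. Of the regulators, mtTFB2 (-0.82), TFAM (-0.58), PolrMT (-0.82) and also ewg (-0.69, adjusted p = 0.000968) were then lower, and srl and Ets97D again higher.

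Muscle markers moved with these genes. Their summed level was 141500, 183400 and 105100 normalised counts in the 3 d libraries, 31020 to 37020 at 15 d, 28170 to 31450 at 30 d and 28040 to 29590 at 45 d. Of 11 muscle markers tested, 7, 7 and 9 were lower at 15, 30 and 45 d (medians -2.05, -2.32 and -2.25). Without 3 d replicate 3 it was 10 at each age (medians -2.435, -2.706 and -2.634). The summed level of the 33 genes divided by that of the muscle markers was 1.66, 1.31 and 3.28 in the 3 d libraries, 2.06, 1.9 and 1.94 at 15 d, 2.41, 2.19 and 1.89 at 30 d and 1.6, 1.71 and 1.89 at 45 d. Each later range lay within that of 3 d. Without 3 d replicate 3, the 15 and 30 d libraries lay above both 3 d libraries, and the 45 d range overlapped them. Fat body markers summed to 25740 to 30590 counts at 45 d against 8491 to 20730 at 3 d, and 2 of 5 tested were higher (3 without 3 d replicate 3). Eye markers summed to 223.2 to 260.1 at 45 d against 257.3 to 1224 at 3 d, with 3 of 4 tested lower (4 without 3 d replicate 3). None of 5 neuron markers was called at 45 d, and all 5 were lower without that replicate (2104 to 2306 summed counts at 45 d against 1100 to 4207 at 3 d). By contrast, testis markers did not exceed 21.44 at any age. What these shifts contribute to the fall was not tested.

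Levels between genes were compared per kb of exon. At 3 d Cyt-c-p was the highest of the 33 at a mean of 20230 normalised counts per kb, followed by ATPsynC at 15500, ATPsynbeta at 14390 and COX5A at 13060. These 3 d means include replicate 3, and the 3 d order depends on it. Its ratio to the mean of the other 3 d libraries was 1.76 for Cyt-c-p, 1.07 for ATPsynC and 0.778 for ATPsynbeta. It was 2.28 for COX5A and 3.09 for COX7A. Means per kb without replicate 3 are not given here. At 45 d Cyt-c-p was still the highest at 2725 per kb, followed by RFeSP at 2522 and ATPsynbeta at 2436, and ATPsynC was the tenth at 1609. COX7A, at 987 per kb at 3 d with replicate 3 included, lay below the other subunits of complex IV, the next of which was COX7C at 5287.

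In the female sets the question is which of these transcripts depend on the mutated genes. Muscle of 3 d Atg8a mutants, which lack most of the transcript of a ubiquitin-like protein that autophagosomes need, had lower transcripts of Cyt-c-p and of 3 of the 4 subunits of complex II. Limma called 4 of 32 genes lower and none higher, against 4.73% of all genes lower and 5.16% higher. In 11 genes every mutant library was below every WT library, as in 13.6% of all genes. Cyt-c-p had 8772, 7314 and 8733 counts in Atg8a mutants against 11730, 11670 and 11460 in WT (log2 -0.49 ± 0.10, adjusted p = 0.00544). SdhB had 6012, 5057 and 5284 in the mutants against 6953, 6867 and 6652 in WT (log2 -0.33 ± 0.08, adjusted p = 0.0231). In both genes all mutant libraries were below all WT libraries. SdhC had 2352, 2047 and 2335 against 2809, 2784 and 2719 in WT (log2 -0.31 ± 0.08, adjusted p = 0.0269), and SdhD had 1800, 1615 and 1611 against 2090, 2164 and 2033 in WT (log2 -0.32 ± 0.08, adjusted p = 0.0231). SdhA did not pass, with 7249, 7401 and 7924 in the mutants against 8745, 8412 and 8311 in WT (log2 -0.17 ± 0.09, adjusted p = 0.244). No gene of complexes III, IV or V was called, with medians of -0.03, -0.17 and -0.14. Atg8a replicate 2 was the lowest library of its group in 29 of 32 genes, and without it 1 gene was called, as without WT replicate 1 or 2, while 2 were called without Atg8a replicate 3. Hemocyte markers were lower in 3 of 5 cases (1450 to 1883 summed counts against 2298 to 2640 in WT), and their part was not tested.

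The daw 3' UTR mutants carry a change in the regulatory end of the transcript of daw, an activin-like ligand. Here 2 of 32 genes were lower and none higher, against 1.96% of all genes lower and 1.16% higher. In 16 genes every mutant library was below every WT library, and the share of all genes with such ranges is not given here. Cyt-c-p had 7842, 7266 and 6861 counts in the mutants against 11730, 11670 and 11460 in WT (log2 -0.67 ± 0.10, adjusted p = 0.00118). UQCR-11 had 587.2, 575.6 and 471.3 against 938.7, 882.9 and 859.6 in WT (log2 -0.72 ± 0.11, adjusted p = 0.00176). The mutant and WT libraries of both genes were well apart. The complex medians were near each other, at -0.20 for II, -0.19 for III, -0.16 for IV and -0.22 for V, and 31 of 32 estimates were below 0. Gut markers were lower in 2 of 5 cases (6408 to 8698 summed counts against 9102 to 16150 in WT), and none of 12 muscle markers was called (98550 to 125500 against 114200 to 128500 in WT). The part of these markers was not tested.

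**Figure D3:**
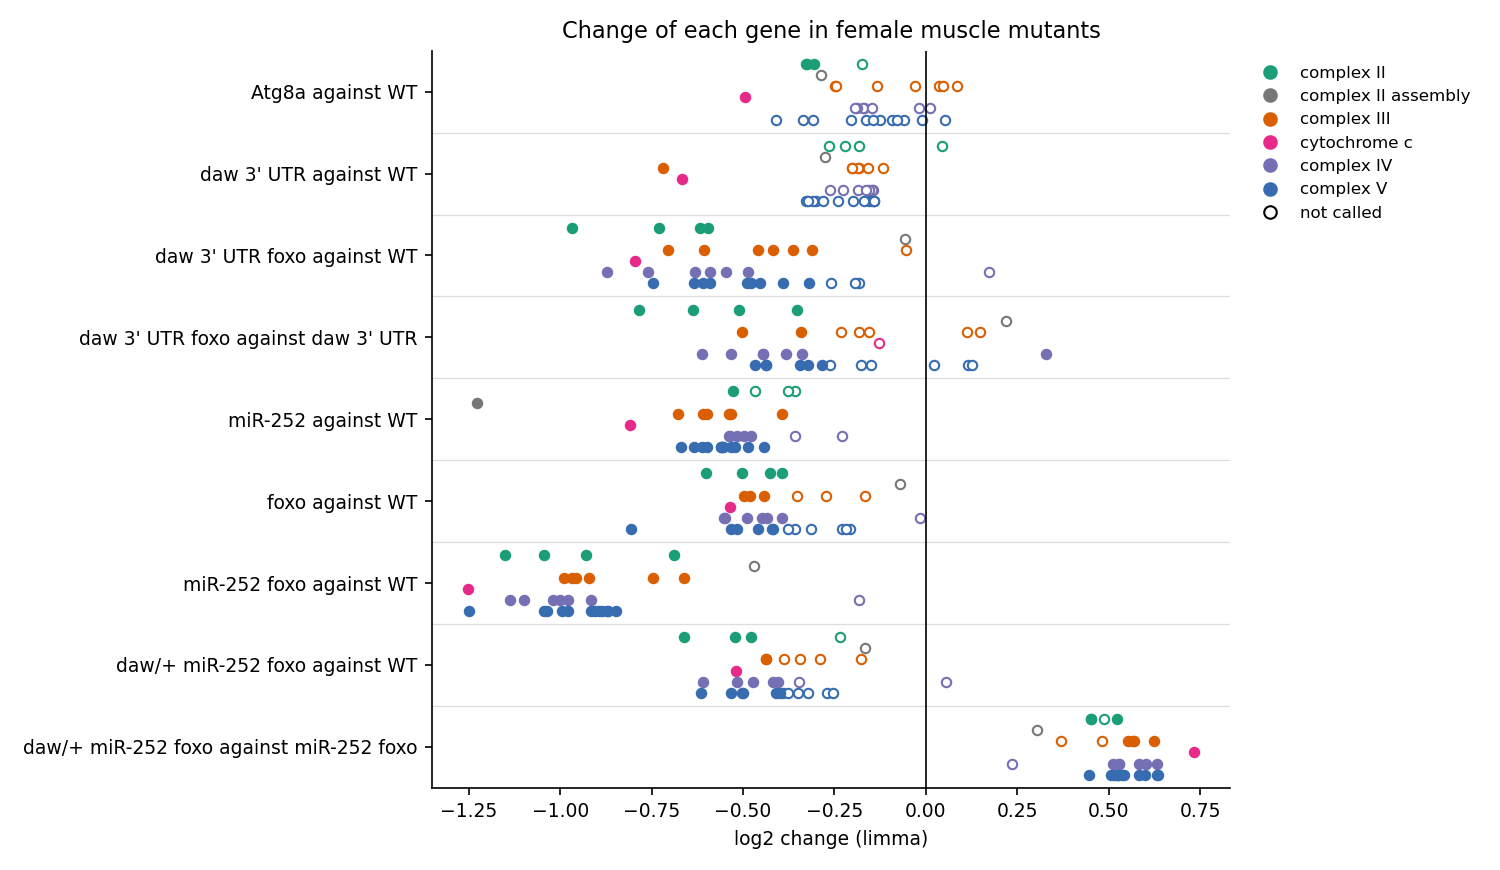
Log2 change of each tested gene (x axis, limma) in 9 comparisons of female muscle (rows), coloured by complex. Filled points were called at an adjusted p under 0.05. The lowest values lie in miR-252 foxo against WT (median -0.96), and the values of daw/+ miR-252 foxo against miR-252 foxo are all above 0 (median 0.53).

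With foxo mutated as well, genes of all complexes were called lower. In daw 3' UTR foxo mutants 26 of 32 genes were lower than in WT and none higher, against 19.1% of all genes lower and 16.7% higher. Ranges did not overlap, with the mutant lower, for 27 genes, as for 23.2% of all genes. Complex II changed most, with 4 of 4 lower and a median of -0.68, then complex IV with 6 of 7 (-0.59), complex V with 9 of 12 (-0.47) and complex III with 6 of 7 (-0.42). SdhB had 3355, 3536 and 3585 counts in daw 3' UTR foxo mutants against 6953, 6867 and 6652 in WT (log2 -0.97 ± 0.08, adjusted p = 1.33e-06). COX8 had 1429, 1361 and 1386 against 2589, 2663 and 2405 in WT (log2 -0.87 ± 0.09, adjusted p = 8.95e-06), and SdhC 1627, 1645 and 1736 against 2809, 2784 and 2719 in WT (log2 -0.73 ± 0.08, adjusted p = 1.21e-05). In these genes the mutant and WT ranges were far apart. The core protein UQCR-C1, the ATP synthase genes ATPsynC, ATPsynbeta and blw (the alpha subunit), COX7A and Sdhaf3 were not called.

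Set against daw 3' UTR mutants, which differ by the foxo allele, daw 3' UTR foxo mutants were lower in 18 genes and higher in 1, against 16.2% and 14.4% of all genes. Ranges did not overlap for 22 lower genes and 1 higher gene, as for 23.2% and 22.0% of all genes. Complex II was lower in 4 of 4 genes (median -0.57) and complex IV in 6 of 7 (-0.45), whereas complex V was lower in 6 of 12 (-0.27), complex III in 2 of 7 (-0.18) and Cyt-c-p was not called (-0.13). SdhB had 3355, 3536 and 3585 counts against 5947, 6287 and 5813 in daw 3' UTR mutants (log2 -0.78 ± 0.08, adjusted p = 1.54e-05). SdhA had 5814, 5120 and 5958 against 9573, 8288 and 8428 (log2 -0.64 ± 0.09, adjusted p = 0.000134), and COX8 1429, 1361 and 1386 against 2206, 2208 and 1973 (log2 -0.61 ± 0.09, adjusted p = 0.000253). All libraries with the foxo allele were below all those without it in these genes. COX7A went the other way, with 341.5, 358.1 and 342.3 counts in daw 3' UTR foxo mutants against 278.4, 274.2 and 275.7 in daw 3' UTR mutants (log2 0.33 ± 0.10, adjusted p = 0.0179). Its level was not called different from WT, which had 294.0, 287.0 and 344.8 (log2 0.17 ± 0.10, adjusted p = 0.176). Muscle markers did not fall here: against WT 8 of 12 were higher and 2 lower, with sums of 130000 to 170800 in daw 3' UTR foxo mutants, 98550 to 125500 in daw 3' UTR mutants and 114200 to 128500 in WT. Hemocyte markers were higher in 5 of 5 cases (6463 to 8085 against 2298 to 2640 in WT) and neuron markers lower in 4 of 5 (1196 to 1609 against 2384 to 2759 in WT), and their part in the result was not tested.

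Females homozygous for the mutant allele of mir-252, a microRNA gene, had lower transcripts of most of these genes. In miR-252 mutants 26 of 31 genes were lower than in WT and none higher, against 2.51% of all genes lower and 1.88% higher. All 6 genes tested of complex III (median -0.57), all 12 of complex V (-0.56) and 5 of 7 of complex IV (-0.50) were called lower. In complex II 1 of 4 subunits was called (-0.42), though all 4 estimates were below 0. Whether the complexes differ was not tested. Cyt-c-p had 7579, 6332 and 7989 counts in miR-252 mutants against 13020, 12040 and 13160 in WT (log2 -0.81 ± 0.12, adjusted p = 0.000168). Sdhaf3 had 9.38, 12.89 and 12.62 against 24.31, 29.93 and 31.17 in WT (log2 -1.23 ± 0.23, adjusted p = 0.00257), a change at low counts. The blw gene had 27300, 20520 and 28190 against 39550, 36050 and 44620 in WT (log2 -0.67 ± 0.14, adjusted p = 0.00742). Each mutant library was below each WT library in 31 of 31 genes, as for 11.2% of all genes. The count of calls leaned on single libraries: it was 6 without miR-252 replicate 2, 14 without miR-252 replicate 1, and 7 and 10 without the WT columns 3 and 1. Summed muscle markers were 108500 to 125800 in miR-252 mutants against 111700 to 126000 in WT, and 4 of 5 gut markers were lower (13820 to 16200 against 20560 to 24030 in WT), whose part was not tested.

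In foxo mutants, which carry an allele of the transcription factor restrained by insulin signalling, 20 of 31 genes were lower and none higher, against 6.28% of all genes lower and 5.54% higher. In 27 genes every foxo library was below every WT library, as in 17.3% of all genes. All 4 subunits of complex II (median -0.46), 6 of 7 genes of complex IV (-0.45), 3 of 6 of complex III (-0.40), 6 of 12 of complex V (-0.40) and Cyt-c-p passed. ATPsynCF6, part of the peripheral stalk of ATP synthase, had 2733, 2677 and 2724 counts in foxo mutants against 4683, 4642 and 4897 in WT (log2 -0.81 ± 0.13, adjusted p = 0.000379). COX8 had 1915, 1776 and 1939 against 2902, 2537 and 2822 in WT (log2 -0.55 ± 0.11, adjusted p = 0.00331). Cyt-c-p had 9130, 8037 and 9237 against 13020, 12040 and 13160 in WT (log2 -0.54 ± 0.12, adjusted p = 0.00436). In all 3 genes the mutant and WT libraries were apart. The count of calls was 10, 10 and 11 without foxo replicate 1, 2 or 3, and 10 and 4 without the WT columns 1 and 3. Fat body markers summed to 296800 to 333600 counts in foxo mutants against 161000 to 187300 in WT, with 3 of 7 higher and 1 lower, and muscle markers to 109500 to 116000 against 111700 to 126000 in WT. Their part in the result was not tested.

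The miR-252 foxo mutants had the lowest levels of the set, except for Sdhaf3 and COX7A, which were lower in miR-252 mutants. Against WT, Sdhaf3 changed by log2 -1.23 in miR-252 and -0.47 in miR-252 foxo mutants, and COX7A by -0.23 and -0.18. Of 31 genes 29 were lower than in WT and none higher, against 12.9% of all genes lower and 12.4% higher, and the count was 29 with any 1 library left out. All 31 genes had every mutant library below every WT library, as had 21.9% of all genes. Medians were close between the complexes, at -0.99 for II, -0.94 for III, -1.0 for IV and -0.91 for V, and COX7A and Sdhaf3 were again not called. Cyt-c-p had 6071, 5551 and 4524 counts in miR-252 foxo mutants against 13020, 12040 and 13160 in WT (log2 -1.25 ± 0.12, adjusted p = 3.38e-07). COX8 had 1405, 1338 and 1038 against 2902, 2537 and 2822 in WT (log2 -1.14, adjusted p = 8.91e-07), and ATPsynCF6 2387, 2149 and 1544 against 4683, 4642 and 4897 in WT (log2 -1.25 ± 0.13, adjusted p = 1.32e-06). Replicate 3 of the miR-252 foxo mutants was the lowest of its group in 30 of 31 genes, at a median of 0.79 times the group mean. Without it the complex medians were -0.83, -0.75, -0.83 and -0.76 for II, III, IV and V. The median over the 31 genes was -0.96, and that of the summed changes of the miR-252 and foxo mutants was -0.97. The test of whether the change with foxo differs with miR-252 called 0 of 31 genes in limma, edgeR and DESeq2, against 2.09% of all genes in either direction in limma. Sdhaf3 alone had an unadjusted p under 0.05 (log2 0.83). The median of that difference was 0.02 with a median SE of 0.18. A call needs a difference of several SE, so differences well above 0.18 could also go uncalled. Muscle markers summed to 96310 to 110100 in miR-252 foxo mutants against 111700 to 126000 in WT, fat body markers to 233700 to 257000 against 161000 to 187300, and hemocyte markers to 5570 to 6753 against 2921 to 3390 (5 of 5 higher), and their part was not tested.

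With 1 mutant copy of daw added, levels were higher than in miR-252 foxo mutants and lower than in WT. Against miR-252 foxo mutants 26 of 31 genes were higher and none lower, against 2.79% of all genes higher and 2.3% lower. That took in 3 of 4 subunits of complex II (median 0.47), 4 of 6 genes of complex III (0.56), 6 of 7 of complex IV (0.53) and 12 of 12 of complex V (0.53). Cyt-c-p had 8696, 9071 and 8884 counts in daw/+ miR-252 foxo mutants against 6071, 5551 and 4524 in miR-252 foxo mutants (log2 0.73 ± 0.12, adjusted p = 0.00163). UQCR-Q had 3711, 4067 and 3484 against 2873, 2515 and 2234 (log2 0.57, adjusted p = 0.00658), and COX5B 3305, 3953 and 3335 against 2686, 2373 and 1834 (log2 0.63 ± 0.12, adjusted p = 0.00806). The ranges did not overlap in 29 genes, as for 10.5% of all genes. The count of 26 called genes rested on few libraries. Without miR-252 foxo replicate 3 it was 4, without daw/+ replicate 2 or 1 it was 11 or 16, and with only these 2 groups in the fit it was 1. The summed muscle markers were 118300 to 121400 in daw/+ miR-252 foxo mutants against 96310 to 110100 in miR-252 foxo mutants, ranges that did not overlap, and their part was not tested.

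Against WT, daw/+ miR-252 foxo mutants were lower in 18 of 31 genes and higher in none, against 8.17% of all genes lower and 7.69% higher. Ranges did not overlap, with the mutant lower, for 27 genes, as for 15.2% of all genes. The medians were -0.50 for complex II, -0.37 for III, -0.42 for IV and -0.40 for V. COX8 had 1755, 1962 and 1699 counts in daw/+ miR-252 foxo mutants against 2902, 2537 and 2822 in WT (log2 -0.61, adjusted p = 0.001). ATPsynCF6 had 3134, 3502 and 2706 against 4683, 4642 and 4897 in WT (log2 -0.61 ± 0.13, adjusted p = 0.00286), and SdhB 4992, 5028 and 4002 against 6989, 7258 and 7852 in WT (log2 -0.66, adjusted p = 0.00304). None of these ranges overlapped. The count of calls was 7 without the WT column 3 and 10 without daw/+ replicate 3. Fat body markers summed to 272600 to 306900 in daw/+ miR-252 foxo mutants against 161000 to 187300 in WT (3 of 7 higher), gut markers to 16740 to 20200 against 20560 to 24030 (3 lower and 2 higher of 5) and hemocyte markers to 4036 to 4814 against 2921 to 3390 (2 of 5 higher). Their part in the result was not tested. All mutants of this set share the WT libraries.

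**Figure D4:**
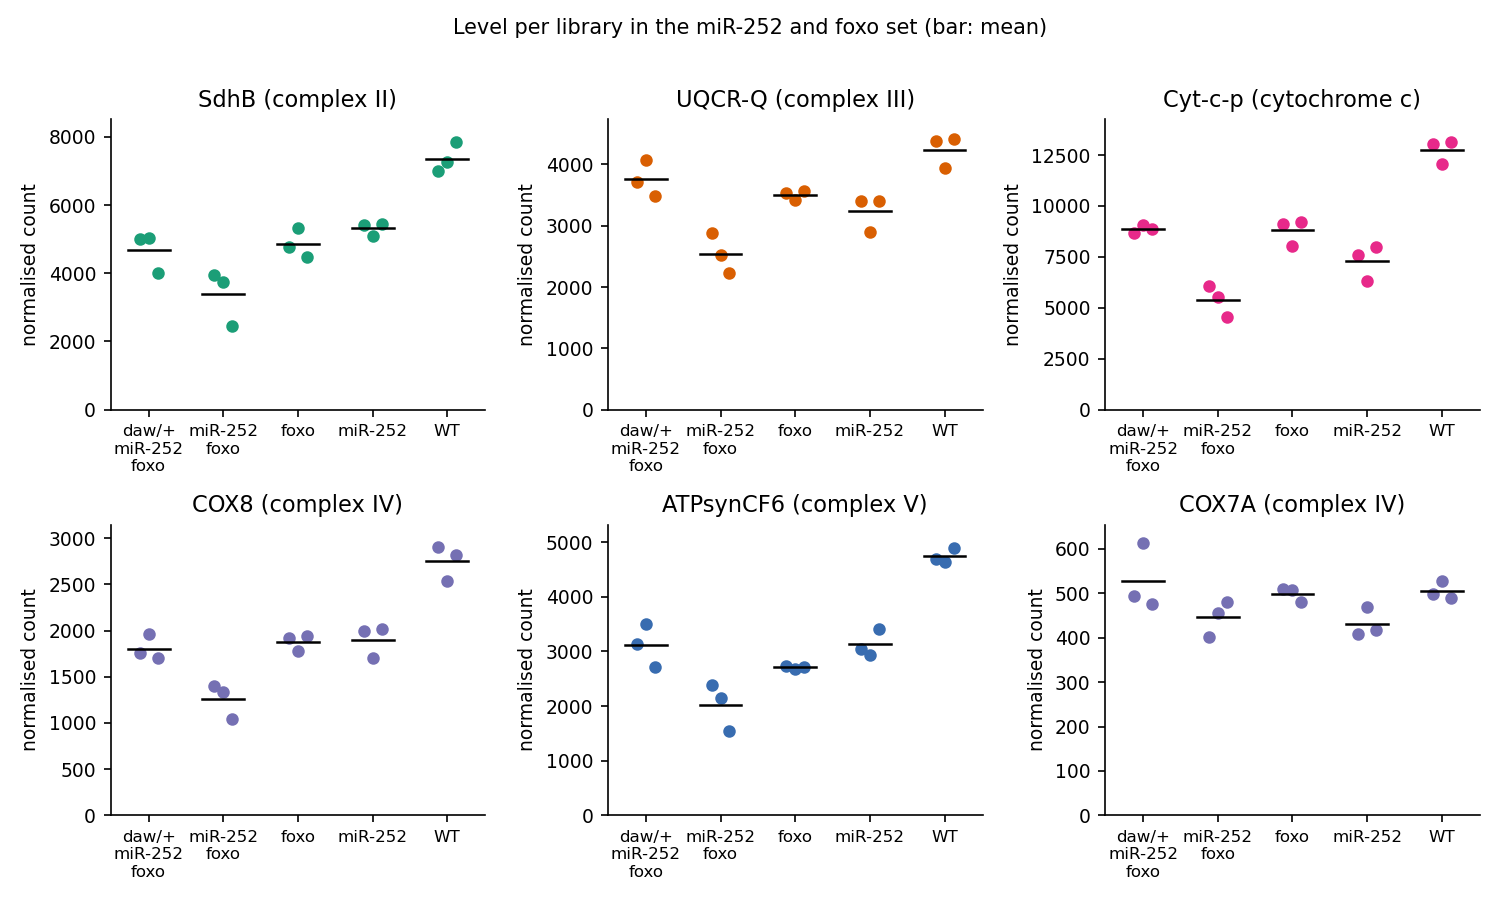
Normalised count (y axis, from 0) per library of SdhB, UQCR-Q, Cyt-c-p, COX8, ATPsynCF6 and COX7A in the 5 groups of the miR-252 and foxo set (x axis). Points are libraries and bars are means of 3. For Cyt-c-p the miR-252 foxo libraries lie at 4524 to 6071 and the WT libraries at 12040 to 13160, and for COX7A the miR-252 foxo libraries lie at 401.1 to 481.0 and the WT libraries at 488.4 to 527.8.

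The foxo allele was also compared between sets that share no library. Of 31 genes tested in both, 20 were lower in foxo mutants against WT and 18 in daw 3' UTR foxo against daw 3' UTR mutants. Both lists held 16 of them, 80.0% of the first and 88.9% of the second, and 9 genes were in neither. Lists of 20 and 18 out of 31 genes share many members in any case, and the share over all genes was not computed. Those 9 were ATPsynC, ATPsynF, ATPsynbeta, ATPsyngamma, blw, UQCR-C1, UQCR-C2, COX7A and Sdhaf3. They include the alpha, beta and gamma subunits of the catalytic part of ATP synthase and the core proteins of complex III. Being in neither list rests on the threshold, since all 31 estimates of foxo against WT were below 0. Across the 30 genes also listed in the axenic table, the log2 changes of the 2 contrasts correlated at 0.77 (Pearson; Spearman 0.673), a description over genes that are not independent and share libraries within each contrast.

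**Figure D5:**
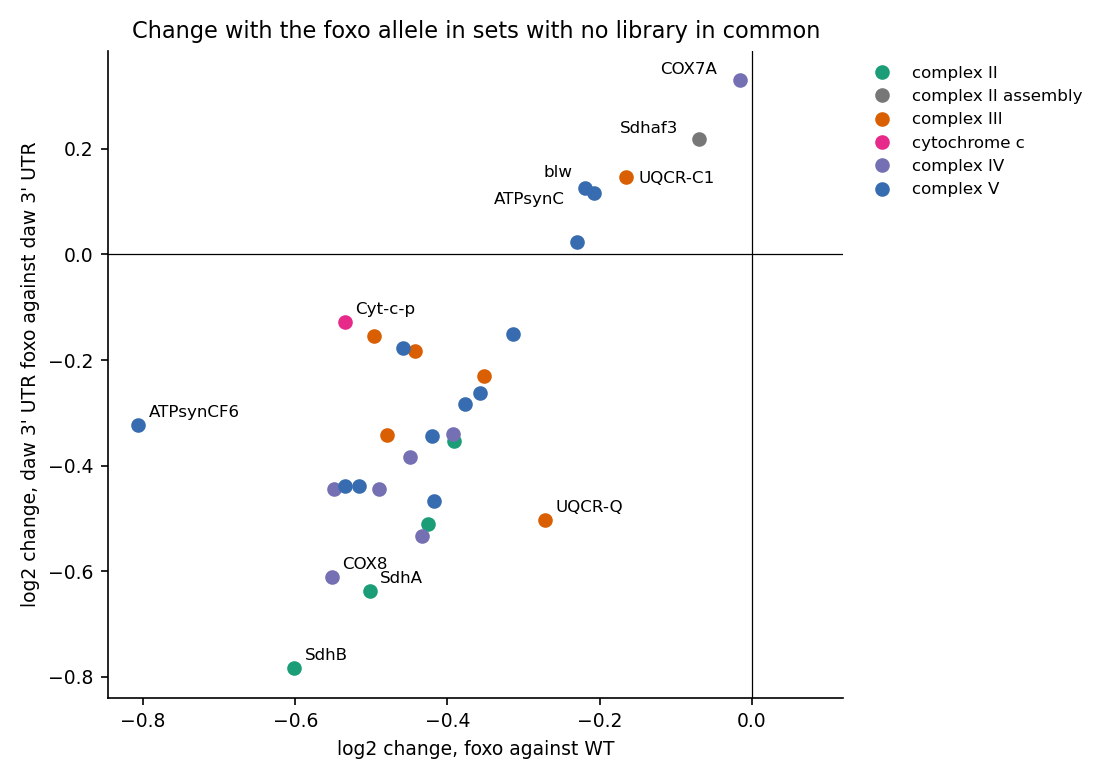
Log2 change with the foxo allele in 31 genes, foxo against WT on the x axis and daw 3' UTR foxo against daw 3' UTR on the y axis (limma), coloured by complex. SdhB lies lowest on the y axis at -0.78, and COX7A highest at 0.33, with -0.02 on the x axis.

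In axenic females the authors' deposited table lists 32 of these genes for foxo mutants against WT. At an adjusted p under 0.05, 6 were lower, none was higher and 25 were not called, and the remainder had no adjusted p. Over all genes with an adjusted p, 3.24% were lower and 3.01% higher. The 6 lower genes were SdhB (log2 -0.52, adjusted p = 0.0271), UQCR-11 (-0.53, 0.0246), COX5A (-0.48, 0.0207), COX6B (-0.47, 0.042), COX8 (-0.62, 0.00212) and ATPsynD (-0.50, 0.0268) in the authors' deposited table. The median log2 change in the authors' deposited table was -0.36 over the 32 genes and 0.01 over all genes, with -0.38 for complex II, -0.35 for III, -0.44 for IV and -0.29 for V. Cyt-c-p is not among the genes that the table lists.

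COX7A was called in 1 comparison of the mutants, daw 3' UTR foxo against daw 3' UTR. In the miR-252 and foxo set it had 493.2, 612.6 and 476.6 counts in daw/+ miR-252 foxo mutants, 401.1, 456.0 and 481.0 in miR-252 foxo mutants, 510.1, 506.9 and 480.7 in foxo mutants, 408.5, 468.8 and 417.3 in miR-252 mutants and 498.9, 527.8 and 488.4 in WT. It was not called in any comparison of that set, although every miR-252 and every miR-252 foxo library lay below every WT library. The gene (FBgn0040529) lies on 3R from 8339944 to 8341043 in BDGP6. For comparison, COX8 (FBgn0263911) lies on 3L from 21538859 to 21539447, Cyt-c-p (FBgn0000409) on 2L from 16719932 to 16722644 and ATPsynC (FBgn0039830) on 3R from 31216145 to 31219630.

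The Ago1 precipitates ask which transcripts are bound by the microRNA effector Ago1 in whole flies. Each group held 2 samples. At 3 d the authors' deposited table had 25 of the 33 genes lower in the precipitate than in the input and none higher. Another 7 were not called, and the remainder, in complex V, had no adjusted p. Over all genes with an adjusted p, 8.19% were lower and 17.8% higher. The median log2 ratio in that authors' deposited table was -0.64, against -0.01 over all genes. All 7 genes of complex IV were lower (median -0.81), as were 3 of 4 of complex II, 4 of 7 of complex III, Cyt-c-p and 10 of 13 of complex V. The lowest 3 d ratios in the authors' deposited table were those of COX8 (log2 -1.50, adjusted p = 2.85e-12), UQCR-6.4 (-1.40, 1.69e-09) and COX7C (-1.30, 1.01e-14), and that of blw was 0.10 (adjusted p = 0.61). Across the 33 genes the 3 d ratio of the authors' deposited table correlated with log2 exon length at 0.423 (Pearson), a description over genes in the same libraries.

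At 30 d the authors' deposited table had 6 of the 33 genes lower in the precipitate and none higher. Over all genes with an adjusted p, 2.09% were lower and 14.4% higher. The 6 lower genes were RFeSP, COX5B, ATPsynD, ATPsynE, ATPsynF and ATPsyndelta. The median of -0.72 was set against -0.09 over all genes in the authors' deposited table. Whether the 2 ages differ was not tested.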

How the data were processed

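Polyadenylated RNA of fly muscle was sequenced. Per the submitters' processing notes, STAR, HTSeq and DESeq were used with build dm6 (tool versions not given). The deposited signal in 3 tables is a normalised read count, made by the authors with DESeq size factors within each table. Each test stayed within 1 table. Comparison tables by the authors hold a log2 fold change, its standard error and Wald statistic (deposited scores) and a deposited p-value with its adjusted form. The sources used here do not tell whether those log2 values were shrunk. All per-sample columns were used (0 left out).

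Each value was a whole multiple of 1 read's worth (100% of values within 0.01), which gave whole reads for edgeR (4.0.16) and DESeq2 (1.42.0) as alternatives. The main test was limma in R (versions 3.58.1 and 4.3.3), with its trend option, on log2(value + 1), all groups of a table in 1 fit, for genes with a table mean of at least 10 (8393, 8271 and 8357 genes). Benjamini-Hochberg adjusted p-values under 0.05 over all genes were called. Fold changes on this scale understate those of low genes. The tests were run on simulated counts for 45 d against 3 d only, with the same spread for all genes and no library like 3 d replicate 3. That does not check the tests of the mutants. Older symbols were matched through RefSeq synonyms, and positions and exon lengths come from Ensembl BDGP6. Counts share no replicate block, since same-numbered libraries did not deviate together in the median (correlation -0.0078, -0.0084 and 0.0173 in the 3 tables). Single pairs did: 0, 5 and 5 of 18 same-numbered pairs correlated above 0.1, at most at 0.175 and 0.281 in the female tables. Of differently numbered pairs, 3 of 36, 6 of 36 and 11 of 72 did. In the miR-252 and foxo table the WT columns cannot be tied to individual WT samples.

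Per complex the text names the 2 genes with the highest 3 d mean, the 2 with the largest and the 1 with the smallest change at 45 d. Per mutant comparison it names every called gene up to 6, otherwise the 3 with the smallest adjusted p each way. Other genes were named after their values were seen. Genes, lists and rules were chosen with earlier results of these data known. Alternatives were a pseudocount of 8, no filter, a common upper quartile, a common total without mitochondrially encoded genes, edgeR, DESeq2, only the groups compared, a replicate block and leaving out each library.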

Additional observations from a re-analysis of the deposited data

How the results depend on the processing

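Under settings other than a left-out library, 110 recomputed counts of called genes stayed within 1.5 times and 5 did not. Those 5 were 2 genes between 30 and 15 d, 17 between 45 and 30 d, 1 in Atg8a mutants and 1 in daw/+ miR-252 foxo against miR-252 foxo, all with only the groups compared in the fit, and 1 between 45 and 30 d with DESeq2; the cause was not tested. Leaving out 1 library in turn gave 0 to 1 genes between 30 and 15 d, 0 to 17 between 45 and 30 d, 1 to 4 in Atg8a, 6 to 29 in miR-252, 4 to 24 in foxo, 7 to 25 in daw/+ miR-252 foxo against WT and 4 to 29 against miR-252 foxo. Medians and named genes were rated as well. Under settings other than a left-out library, 438 complex medians were rated the same and 22 as moved. Of the results for named genes, 638 were rated the same, 23 weaker, 1 stronger and 6 moved. With 1 library left out, 773 medians were rated the same and 19 as moved. For named genes it was then 1029 the same, 27 weaker, 2 stronger and 7 moved. No value changed sign with a call. With the replicate number as a block, 29, 30 and 30 genes were called at 15, 30 and 45 d against 3 d, 26 in daw 3' UTR foxo mutants and 26 in daw/+ against miR-252 foxo mutants, and no count moved by over 1.5 times. No paired analysis was possible for the comparisons with WT in the miR-252 and foxo set because the WT columns carry no sample numbers. A common total without mitochondrially encoded genes moved the median of all genes at 45 d to 0.60 on the log2 scale and that of the 32 genes to -1.89, a difference of -2.49 from all genes. The female sets list none of the 6 mitochondrially encoded subunits of complexes III to V, so leaving those out changed nothing there. In those sets this common total moved the median of all genes to 0.16 in miR-252 foxo against WT. It moved it to -0.15 in daw/+ miR-252 foxo against miR-252 foxo, where the 31 genes then had a median of 0.395. With 3 libraries a group and 2358162 reads at the least, a call needed a change of several SE, so smaller changes could go uncalled.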
